A study of Mus musculus with 6 samples.

Results

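Neat1, Malat1 and Pvt1 are long non-coding RNA genes whose transcripts are known for staying largely in the nucleus. They were taken by name from the count table, where they are 3 of 45527 named genes, and all 3 passed the filter on low counts with at least 1238 counts in every library. RNA was sequenced from satellite cells, which are the muscle stem cells, taken 24 h after injury of the lower hindlimb by 30 µl of cardiotoxin, a snake toxin that destroys muscle fibres. The iKO-labelled group (Paxbp1-iKO, 3 libraries) had the genotype Pax7creER:Paxbp1flox/flox:R26R-YFP, and the control group (Ctrl, 3 libraries) had Pax7creER:Paxbp1flox/+:R26R-YFP. Every mouse thus carried a tamoxifen-inducible Cre recombinase driven by the satellite cell gene Pax7, at least 1 floxed allele of Paxbp1 and a Cre-dependent yellow fluorescent protein for sorting. The sources used here do not give the age of the mice. The labels speak of pairs of mice without saying which library came from which animal, and a p-value therefore reflects only how far these libraries spread.

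Paxbp1, which encodes a protein that binds Pax3 and Pax7, was read first as a check of the labels. Its counts were 2745, 3162 and 3125 in iKO 1 to 3, against 1583, 1917 and 1592 in Ctrl 1 to 3. It was therefore higher, not lower, in the libraries labelled as the knockout (log2 fold change 0.68 ± 0.13 SE, edgeR adjusted p = 0.00954). Counts cover the whole gene and say nothing on deletion of its floxed part, so this check could not decide whether the labels are right. Every direction given here rests on the labels alone.

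Neat1 is the RNA scaffold of paraspeckles, nuclear bodies that form around its long transcript with the proteins Sfpq, Nono and Pspc1 and hold back certain RNAs and proteins. Malat1 is among the most abundant nuclear RNAs of mammalian cells and gathers in nuclear speckles, where splicing factors are stored. Pvt1 starts close to the oncogene Myc, and in human cells its promoter is known to compete with that of MYC for enhancers. The ends of Malat1 and of long Neat1 are cut by RNase P instead of being polyadenylated, and U-rich stretches that pair with an A-rich tract close to the end shield both RNAs from decay. Short Neat1 and Pvt1 end in a poly(A) tail, which is where the reverse transcription used for these libraries (Smart-Seq2) is primed.

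The ends of the transcripts are printed because they bear on which RNAs carry a tail for that priming. Malat1 nevertheless had the most counts of the 3 genes in every library, and where on it reverse transcription was primed was not tested. In the following 2 sequences, of 113 bases each in the sense of the RNA, capitals mark the 3 stretches that Malat1 and long Neat1 share, of 13, 16 and 11 bases. They come from the GENCODE M21 transcripts on the minus strand of GRCm38, at chr19:5795982-5796094 for Malat1-201 and chr19:5824708-5824820 for Neat1-201.
Malat1-201: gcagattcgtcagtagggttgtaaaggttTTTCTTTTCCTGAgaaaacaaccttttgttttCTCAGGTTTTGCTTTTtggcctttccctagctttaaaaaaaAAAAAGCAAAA
Neat1-201: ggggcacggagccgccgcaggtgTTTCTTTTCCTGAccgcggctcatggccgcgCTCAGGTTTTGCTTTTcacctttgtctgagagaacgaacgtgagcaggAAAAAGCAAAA
The first 2 stretches are the U-rich ones, written with T, and the last is the A-rich tract. The run of A at that tract is 12 bases long in Malat1 and 5 in Neat1. In Neat1-201 the tract closes the annotated transcript, whereas Malat1-201 goes on for 292 bases beyond it. The 11 letters of the tract, AAAAAGCAAAA, searched on the transcript strand only, are in 77 of the 18930 annotated long non-coding transcripts (0.407%).

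The last 60 bases of the polyadenylated forms are shown for contrast, with the letters AATAAA of the canonical polyadenylation signal in capitals. They lie at chr19:5842307-5842366 on the minus strand for short Neat1 (Neat1-202) and at chr15:62378037-62378096 on the plus strand for the longest annotated Pvt1 transcript (Pvt1-202).
Neat1-202: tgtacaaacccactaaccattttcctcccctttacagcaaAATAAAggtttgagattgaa
Pvt1-202: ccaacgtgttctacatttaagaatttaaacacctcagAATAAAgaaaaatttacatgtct
AATAAA is in the last 60 bases of 30.0% of the annotated long non-coding transcripts, searched on the transcript strand. The deposited counts are per gene, so they do not separate short from long Neat1, and which of the 2 was read was not tested.

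Neat1 and Malat1 were higher in the iKO-labelled libraries, Neat1 by 3.75-fold and Malat1 by 2.02-fold, while Pvt1 did not pass the test. Called here means a Benjamini-Hochberg adjusted p under 0.05 from edgeR's quasi-likelihood test over 16252 genes. By that rule 20.4% of all tested genes were called, 8.15% higher (1324 genes) and 12.3% lower (1991 genes). The groups did not overlap in 39.8% of all tested genes, with every iKO-labelled library above every Ctrl library in 18.9% and below in 20.9%. Scaling by library totals instead gave 1920 higher and 1445 lower, and upper-quartile scaling gave 1630 higher and 1656 lower. CPM are counts scaled to the library size with TMM factors, and fold changes are log2 of iKO-labelled over Ctrl ± SE.

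Neat1 (ENSMUSG00000092274.3, minus strand, chr19:5824708-5845478) had counts of 7402, 9906 and 7831 in iKO 1 to 3, against 2128, 2472 and 1383 in Ctrl 1 to 3. These are 259, 337 and 317 CPM in iKO 1 to 3, against 95.0, 95.4 and 52.9 CPM in Ctrl 1 to 3. The groups did not overlap, and Ctrl 3 was the lowest library by a wide margin. The mean was 304 ± 40.6 CPM in iKO-labelled cells and 81.1 ± 24.4 CPM in Ctrl cells (SD, n = 3 each), a log2 fold change of 1.91 ± 0.22 (edgeR adjusted p = 0.00105). A larger rise was fitted for 634 of the 16252 tested genes (3.90%), of which 244 were called. Leaving out Ctrl 3 gave the smallest value of any alternative, 1.69, and the call held in all 18 alternatives (values 1.69 to 2.05, highest adjusted p = 0.00779).

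Malat1 (ENSMUSG00000092341.3, minus strand, chr19:5795690-5802672) was the most abundant of the 3 genes in every library. Its counts were 21925, 22784 and 21860 in iKO 1 to 3, against 10224, 11145 and 8252 in Ctrl 1 to 3. In CPM it stood at 767, 776 and 885 in iKO 1 to 3, against 456, 430.2 and 316 in Ctrl 1 to 3. The groups again did not overlap, and Ctrl 3 was once more the lowest library. The mean was 809 ± 65.8 CPM in iKO-labelled cells and 401 ± 74.8 CPM in Ctrl cells (SD, n = 3 each), a log2 fold change of 1.01 ± 0.14 (edgeR adjusted p = 0.00196). A larger rise was fitted for 2000 of the 16252 tested genes (12.3%), of which 642 were called. The call of Malat1 held in all 18 alternatives (values 0.88 to 1.15, highest adjusted p = 0.0126).

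Pvt1 (ENSMUSG00000097039.8, plus strand, chr15:62037986-62378096) had counts of 2091, 2234 and 1411 in iKO 1 to 3, against 1371, 1238 and 1458 in Ctrl 1 to 3. It stood at 73.2, 76.0 and 57.1 CPM in iKO 1 to 3, against 61.2, 47.8 and 55.8 CPM in Ctrl 1 to 3. The groups overlapped, since iKO 3 lay below Ctrl 1. The mean was 68.8 ± 10.2 CPM in iKO-labelled cells and 54.9 ± 6.75 CPM in Ctrl cells (SD, n = 3 each), a log2 difference of 0.33 ± 0.15 (edgeR adjusted p = 0.184). None of the 18 alternatives called it (values 0.24 to 0.46, adjusted p from 0.0663 to 0.446). A p that misses the threshold does not show that the groups were alike.

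**Figure D1:**
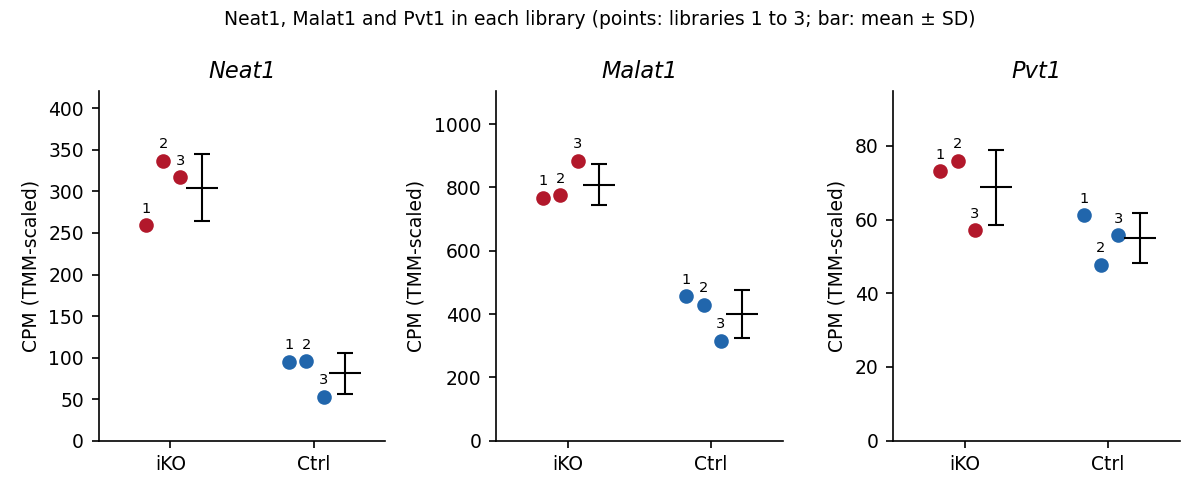
CPM (TMM-scaled, linear axes from 0) of Neat1, Malat1 and Pvt1, with the 3 iKO-labelled libraries left of the 3 Ctrl libraries, a point per library and a bar for mean ± SD. Neat1 sits at 259 to 337 CPM in iKO-labelled libraries and 52.9 to 95.4 CPM in Ctrl libraries, Malat1 at 767 to 885 CPM in iKO-labelled and 316 to 456 CPM in Ctrl libraries, and the 2 groups of Pvt1 overlap.

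Library totals were 23299344 to 28016271 counts in iKO-labelled libraries and 23483305 to 27277555 in Ctrl libraries. A count was present for 22964 to 25433 named genes in iKO-labelled libraries and for 20393 to 24334 in Ctrl libraries. Messenger RNAs of the mitochondrial genome took 0.413% to 0.430% of the counts in iKO-labelled libraries and 1.49% to 1.61% in Ctrl libraries. Without these, the 3 genes and the 50 most abundant genes in the scaling, the log2 fold changes were 1.91 for Neat1, 1.01 for Malat1 and 0.32 for Pvt1. The 9 satellite cell markers summed to 12079 to 12659 CPM in iKO-labelled libraries and 9590 to 10102 CPM in Ctrl libraries. Of these, 5 were called higher (Pax7, Cdh15, Vcam1, Chodl and Sdc4) and 3 lower (Myf5, Itga7 and Des). The shares over all tested genes were 8.15% higher and 12.3% lower. Markers of 9 other cell types (52 genes) summed to 984 to 1264 CPM in iKO-labelled libraries and 975 to 1389 CPM in Ctrl libraries, and Nkg7 was at 0 in every library. Of the 43 tested, edgeR called 0, with 1 at an unadjusted p under 0.05, and DESeq2 called 1. The part of the mitochondrial share, the number of detected genes or the satellite cell markers in the results was not tested, and in bulk libraries a different share of cells cannot be told apart from a different amount of RNA per cell.

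Levels can be compared between genes only per length, for which the deposited FPKM (fragments per kilobase of gene, relative to sequencing depth) were used. Neat1 stood at 12.3, 16.0 and 15.1 FPKM in iKO 1 to 3, against 4.42, 4.51 and 2.51 FPKM in Ctrl 1 to 3. Malat1 stood at 109, 109.7 and 125 FPKM in iKO 1 to 3, against 63.1, 60.5 and 44.5 FPKM in Ctrl 1 to 3. Pvt1 stood at 10.4, 10.7 and 8.07 FPKM in iKO 1 to 3, against 8.45, 6.71 and 7.85 FPKM in Ctrl 1 to 3. The order was Malat1, Neat1, Pvt1 in every iKO-labelled library and Malat1, Pvt1, Neat1 in every Ctrl library, and no 2 genes overlapped within a group.

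That order rests on the length by which the counts are divided. The lengths behind the FPKM equalled the summed exons of each gene in GENCODE M21, which are 20771 bases for Neat1, 6983 for Malat1 and 6996 for Pvt1. The Neat1 length is that of the long transcript, while the short transcript has 3004 bases. The Pvt1 length combines 10 transcripts, the longest with 3319 bases. If all Neat1 reads were from the short transcript, its level would be 85.3, 111 and 104 FPKM in iKO 1 to 3, against 30.5, 31.2 and 17.3 FPKM in Ctrl 1 to 3. Neat1 would then lie above the deposited Pvt1 values in both groups and overlap Malat1 in the iKO-labelled libraries. Pvt1 was kept at 6996 bases there. Dividing it by its longest transcript of 3319 bases would raise its level too, and the order of Neat1 and Pvt1 was not read that way.

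**Figure D2:**
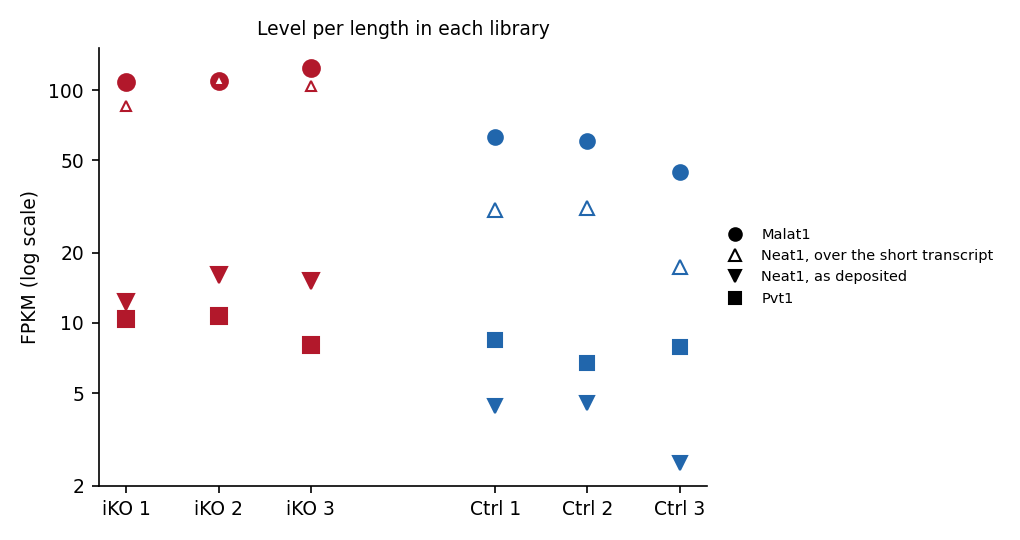
FPKM (log axis) of the 3 genes in each library, iKO 1 to 3 left of Ctrl 1 to 3. Filled marks are the deposited values, and open triangles show Neat1 divided by the short transcript of 3004 bases. This moves it in Ctrl libraries to a place above Pvt1, which is left at its deposited values.

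Relative to Malat1, Neat1 stood higher in each iKO-labelled library than in any Ctrl library, and so did Pvt1 relative to Myc. For every 100 Malat1 counts there were 33.8, 43.5 and 35.8 Neat1 counts in iKO 1 to 3, against 20.8, 22.2 and 16.8 in Ctrl 1 to 3. The groups did not overlap, and the log2 ratio differed by 0.92 (exact two-sided permutation test, p = 0.1, the smallest that 3 against 3 libraries allow). Both genes of such a ratio are read in the same library, so it does not depend on how libraries are scaled.

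For every 100 counts of Myc, which encodes a growth-promoting transcription factor, there were 8.19, 6.63 and 4.98 Pvt1 counts in iKO 1 to 3, against 3.38, 2.88 and 3.32 in Ctrl 1 to 3. The groups did not overlap here either, and the log2 ratio differed by 1.02 (exact two-sided permutation test, p = 0.1, the smallest possible). The 2 ratios were the only ones computed, and their p adjusted over both is also 0.1. Myc itself was lower, at 1063 ± 147 CPM in iKO-labelled cells and 1717 ± 81.6 CPM in Ctrl cells (SD, n = 3 each; log2 fold change -0.69 ± 0.10, edgeR adjusted p = 0.00277). Most of the shift in the ratio thus lay in Myc, with a log2 difference of 0.33 in Pvt1 that did not pass the test.

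**Figure D3:**
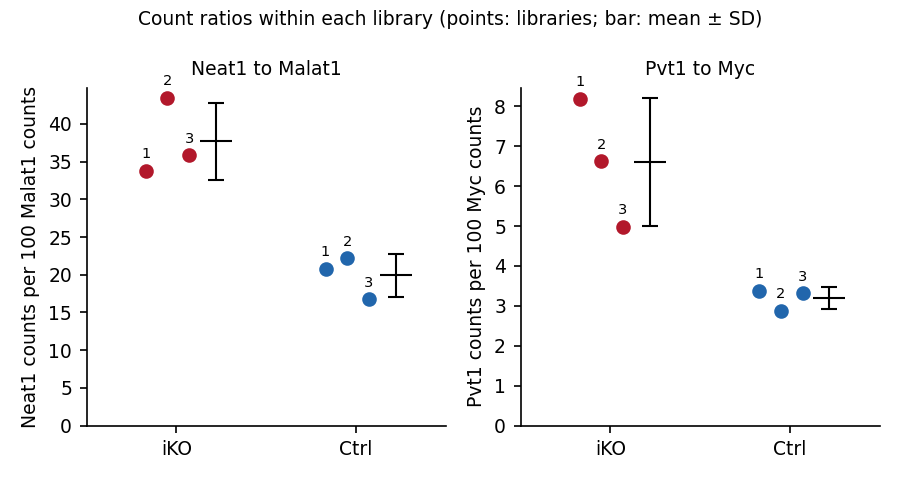
Counts of Neat1 per 100 counts of Malat1 and of Pvt1 per 100 counts of Myc (linear axes from 0), with the 3 iKO-labelled libraries left of the 3 Ctrl libraries, a point per library and a bar for mean ± SD. Neat1 stands at 37.7 ± 5.12 in iKO-labelled and 19.9 ± 2.82 in Ctrl libraries, and Pvt1 at 6.60 ± 1.61 in iKO-labelled and 3.19 ± 0.272 in Ctrl libraries (SD, n = 3 each).

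Among the annotated long non-coding RNA genes, calls in the iKO-labelled libraries were nearly all rises. Of the 1458 such genes tested beside the 3, 112 were called higher (7.68%) and 4 lower (0.274%), with a median log2 fold change of 0.56. Over the 13370 protein-coding genes the shares were 8.68% higher and 14.3% lower, with a median of -0.02. Over all tested genes they were 8.15% higher and 12.3% lower. Long non-coding genes were thus not called higher more often than genes in general, and only calls of a fall were rarer. Most of the long non-coding genes were scarce (median of the mean log2 CPM -0.20, against 3.50 over all tested genes), and a scarce gene that is detected mainly in 1 group passes the filter through that group. DESeq2 called 178 of the 1458 higher and 9 lower. The count higher was 67, 55 and 53 without iKO 1, 2 or 3, 73 where 3 libraries had to reach 5 CPM, and 60 with the replicate number as a block.

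At or above the mean log2 CPM of Pvt1 there were 21 long non-coding genes, the 3 included, of which 9 were called higher and 1 lower. Over all genes at that level, 403 of 3380 were called higher and 983 lower. The 1 that was lower is AI506816, which was singled out after its values were seen (371 ± 65.5 CPM in iKO-labelled cells and 608 ± 11.2 CPM in Ctrl cells, SD, n = 3 each). The class is that of GENCODE M21 and includes Cct6a among the 21, the gene of a chaperonin subunit, which was not called and is named here only for its annotation. By mean FPKM among the 1461 genes of the class, Malat1 ranked 6 in iKO-labelled and 10 in Ctrl cells, Neat1 ranked 40 in iKO-labelled and 81 in Ctrl cells, and Pvt1 ranked 57 in iKO-labelled and 41 in Ctrl cells. The rank of Neat1 rests on the length of its long transcript. Larger rises than that of Neat1 were fitted for 164 long non-coding genes, and larger ones than that of Malat1 for 459.

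**Figure D4:**
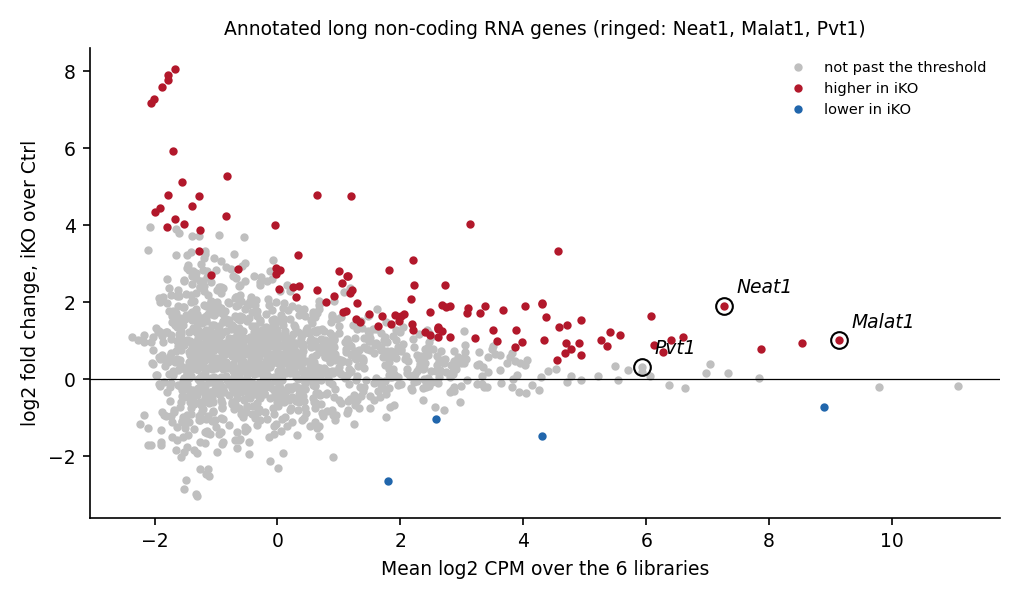
Log2 fold change of iKO-labelled over Ctrl against the mean log2 CPM over the 6 libraries, a point for each of 1461 annotated long non-coding RNA genes, red where called higher and blue where called lower in iKO. Neat1 and Malat1 (ringed) are red and lie at the abundant end, Pvt1 (ringed) is not past the threshold, and few points are blue.

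In a list of 50 other named long non-coding RNAs, 40 were tested, of which 14 were called higher and 1 lower. Over all tested genes 8.15% were called higher and 12.3% lower. The median log2 fold change of the list was 0.66, against 0.56 over the 1458 long non-coding genes beside the 3 and 0.02 over all tested genes. The list holds scarce genes, and one detected mainly in iKO-labelled libraries passes the filter through that group, so its rise is no separate result. An example is Ptprv, called higher by 5.27 at 2.71 ± 1.23 CPM in iKO-labelled and 0.0639 ± 0.0796 CPM in Ctrl cells (SD, n = 3 each). The counts and median of the list are therefore a description. Gas5, a snoRNA host gene, was at 514 ± 19.6 CPM in iKO-labelled cells and 268 ± 9.88 CPM in Ctrl cells (SD, n = 3 each; log2 fold change 0.94 ± 0.07, edgeR adjusted p = 1.48e-04). The other members with the smallest adjusted p were Snhg8, which rose by 1.41, and Mir17hg, which carries a microRNA cluster that Myc is known to drive and which rose by 1.64 on the log2 scale. The difference of 25 of the 40 did not pass the test, snoRNA and microRNA host genes among them. The genes described next were singled out after their values were seen. Tug1 was higher by 0.80, and H19, an imprinted RNA, fell by 2.63 to 1.45 ± 0.752 CPM in iKO-labelled cells, against 9.05 ± 2.90 CPM in Ctrl cells (SD, n = 3 each). Kcnq1ot1, an imprinted RNA that stays in the nucleus, did not pass the test at 231 ± 12.8 CPM in iKO-labelled cells and 227 ± 19.8 CPM in Ctrl cells (SD, n = 3 each), and neither did Meg3 (log2 difference -0.23).

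As background for the lists of proteins, 8.15% of all tested genes were called higher and 12.3% lower. Many of the listed genes are abundant, and abundant genes were called more often. Of the 3380 genes at or above the mean log2 CPM of Pvt1, 403 were called higher and 983 lower. Messenger RNAs of paraspeckle proteins were called lower more often than higher in the iKO-labelled libraries, whereas Neat1 was higher. Of 30 tested, 16 were called lower and 1 higher, with a median log2 fold change of -0.29 against 0.02 over all tested genes. The 3 with the smallest adjusted p were Rbm3, a cold-inducible RNA-binding protein (-0.87 ± 0.07), Hnrnpa1, a splicing regulator (-0.75 ± 0.07), and Hnrnpk (-0.54 ± 0.06). The core proteins, singled out after their values were seen, all fell. Sfpq was at 154 ± 1.69 CPM in iKO-labelled cells and 212 ± 3.64 CPM in Ctrl cells (SD, n = 3 each; log2 fold change -0.46 ± 0.07, edgeR adjusted p = 0.00307). Pspc1 was at 28.3 ± 1.20 CPM in iKO-labelled cells and 48.7 ± 5.21 CPM in Ctrl cells (SD, n = 3 each; log2 fold change -0.78 ± 0.14, edgeR adjusted p = 0.0059). Nono was at 226 ± 32.1 CPM in iKO-labelled cells and 331 ± 31.1 CPM in Ctrl cells (SD, n = 3 each; -0.55 ± 0.12, edgeR adjusted p = 0.0144), a call that was lost without iKO 2, Ctrl 2 or Ctrl 3 and with unfiltered FPKM.

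Some of these proteins bear on which end Neat1 takes. In human cells CPSF6 and NUDT21 direct polyadenylation of the short form, and HNRNPK opposes them in favour of the long form. Cpsf6 (-0.96 ± 0.10) and Nudt21 (-0.67 ± 0.12, singled out after its values were seen) were both lower, as was Hnrnpk, so messenger RNAs of both sides were lower together. The 1 member of the list called higher was Rbm4b, an RNA-binding protein (0.60 ± 0.13, also singled out afterwards). It was not called without iKO 2 or iKO 3, and other members had positive log2 differences that did not pass the test.

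Messenger RNAs of nuclear speckle proteins, the company of Malat1 in the nucleus, were called higher more often than lower. Of 28 tested, 9 were called higher and 3 lower, with a median log2 fold change of 0.11 against 0.02 over all tested genes. The 3 with the smallest adjusted p were Luc7l3, a splicing factor (0.79 ± 0.08), Clk1, a kinase of SR splicing factors (0.72 ± 0.08), and Srsf7, an SR splicing factor (0.47 ± 0.06). The 3 called lower, named to complete the calls, were Srpk1 (-0.79 ± 0.13), Ddx39b (-0.72 ± 0.10) and Rnps1 (-0.44 ± 0.07). Without iKO 2, iKO 3 or Ctrl 3 the number called higher was 5.

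Factors that make or protect the end of Malat1 were called in both directions. Of 12 tested RNase P subunits and related factors, 3 were called higher and 1 lower, against 8.15% higher and 12.3% lower over all tested genes, with a median of -0.01. Rpp38, an RNase P subunit, rose by 0.97 ± 0.23, Mettl16, a methyltransferase that binds the end of MALAT1 in human cells, rose by 0.40 ± 0.09, and Pop1, another subunit, fell by 0.67 ± 0.15 on the log2 scale. These calls were not firm, since the number called higher was 0 without iKO 1 or Ctrl 3 and 1 without iKO 3, Ctrl 1 or Ctrl 2, and the number called lower was 0 without iKO 1, iKO 3 or Ctrl 1 and 2 without iKO 2.

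Of 20 cleavage and polyadenylation factors, 4 were called higher and 7 lower, with a median of -0.18. Besides Cpsf6, the members with the smallest adjusted p were Cstf2, a subunit of the cleavage stimulation factor (-0.93 ± 0.11), and Papola, a poly(A) polymerase (-0.49 ± 0.07). The number called higher was 2, 1 and 2 without iKO 1, 2 or 3, and 7 with DESeq2. Of 20 tested components of the nuclear exosome, which degrades nuclear RNA, and its adaptors, 2 were called higher (Zfc3h1, 1.04 ± 0.22, and C1d, 0.65 ± 0.12) and 1 lower (Mtrex, -0.49 ± 0.13), with a median of -0.12. Zfc3h1 was not called without iKO 2 or iKO 3, and the call of Mtrex was lost when any of iKO 2, iKO 3 and the 3 Ctrl libraries was left out.

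Neat1 and Malat1 lie 22036 bases apart on the same strand. Within 250 kb of either gene, 28 other genes were tested, of which 1 was called higher, 3 lower and 24 neither, with a median log2 fold change of -0.04. Over all tested genes 8.15% were called higher and 12.3% lower, and the neighbours' counts are a description beside those shares. Frmd8, whose body lies 4224 bases from that of Neat1, the nearest tested neighbour, was at 49.3 ± 5.25 CPM in iKO-labelled cells and 40.9 ± 2.33 CPM in Ctrl cells (SD, n = 3 each; log2 difference 0.27, edgeR adjusted p = 0.20). Dpf2, a chromatin remodelling subunit, showed 0.28 (edgeR adjusted p = 0.0745), which passed with DESeq2, with upper-quartile or library-total scaling and with the filter at 5 CPM.

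The called neighbours were singled out after their values were seen. Rela, a subunit of NF-kappaB, was at 461 ± 24.4 CPM in iKO-labelled cells and 329 ± 31.9 CPM in Ctrl cells (SD, n = 3 each; log2 fold change 0.49 ± 0.09). Pola2, a subunit of the polymerase that primes DNA replication, fell to 6.27 ± 2.29 CPM in iKO-labelled cells, against 34.2 ± 5.23 CPM in Ctrl cells (SD, n = 3 each). Cdca5, which helps hold sister chromatids together, fell to 0.724 ± 0.566 CPM in iKO-labelled cells, against 21.6 ± 8.58 CPM in Ctrl cells (SD, n = 3 each). Syvn1, a ubiquitin ligase of the endoplasmic reticulum, fell by 0.36 on the log2 scale, a call lost in 11 of the 18 alternatives.

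**Figure D5:**
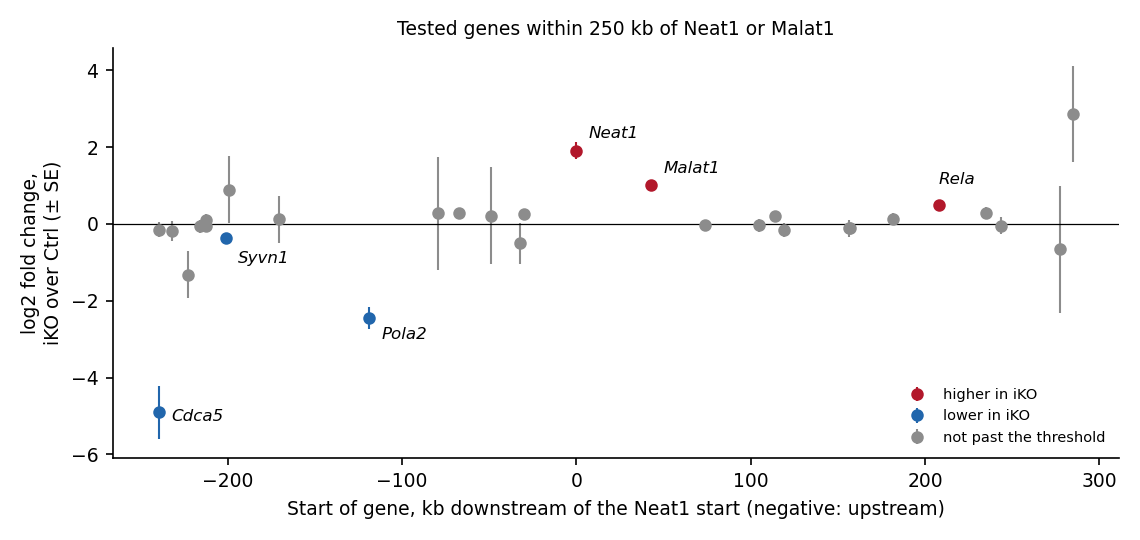
Log2 fold change of iKO-labelled over Ctrl (points, with bars for SE) of Neat1, Malat1 and the 28 other tested genes within 250 kb of either, against the distance of each gene's start from that of Neat1 in kb. Neat1 (1.91), Malat1 (1.01) and Rela (0.49) are called higher, Cdca5, Pola2 and Syvn1 lower, and the remaining points are not past the threshold.

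Reads where genes overlap cannot be assigned by position alone. Smart-Seq2 does not mark strand, and strand would not separate overlapping genes on the same strand, such as Gm27782 and Pvt1. How reads in such overlaps were counted was not tested, so a count of 0 does not show that no reads were shared. The 3 annotated genes inside Neat1 and the 2 inside Malat1 had 0 counts in every library. Of 5 inside Pvt1, the highest count in any library was 86, for Gm27782 (86, 63 and 59 counts in iKO 1 to 3, against 42, 69 and 55 in Ctrl 1 to 3), and its difference did not pass the test. Myc, whose body lies 47612 bases from that of Pvt1, was the only called gene among the 3 tested within 250 kb.

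The genes with the most similar pattern were sought among the 5158 genes whose mean log2 CPM was 5 or more, by the root-mean-square difference of centred log2 CPM over the 6 libraries. These libraries share the group difference, so the distances are a description. Closest to Neat1 were Hspa1a, a heat-shock chaperone with a near-identical copy that makes its counts uncertain (0.217), Chd9, a chromatin remodeller (0.225), and Serpine2, a secreted protease inhibitor (0.251). Closest to Malat1 were Sat1, an enzyme of polyamine breakdown (0.0640), Bdp1, a subunit of the RNA polymerase III initiation factor (0.0938), and Pbxip1, which binds Pbx factors (0.109). Closest to Pvt1 were R3hcc1l (0.0531), Tkt, an enzyme of the pentose phosphate pathway (0.0634), and Mzt1, a part of the microtubule nucleation complex (0.0644).

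Malat1 and Neat1 lay 0.489 apart in log2, and Malat1 was the 48th closest gene to Neat1, whereas Neat1 was the 1378th closest to Malat1, behind Pvt1 as the 1031st. Pvt1 lay 0.448 from Malat1 and 0.893 from Neat1. A gap in fold change adds to this distance, and the log2 values were 1.91 for Neat1, 1.01 for Malat1 and 0.33 for Pvt1. The ranks therefore do not show that Pvt1 followed Malat1 more closely than Neat1 did in direction. Sat1 stood at 655, 656 and 696 CPM in iKO 1 to 3, against 352, 356 and 275 CPM in Ctrl 1 to 3, and like Malat1 it was lowest in Ctrl 3. Hspa1a stood at 608, 535 and 594 CPM in iKO 1 to 3, against 180, 148 and 115 CPM in Ctrl 1 to 3, also lowest in Ctrl 3. Sat1 and Hspa1a were chosen for their closeness over these same libraries. The shared lowest library is therefore part of that choice and no separate likeness.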

How the data were processed

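RNA from sorted satellite cells was reverse transcribed and amplified by Smart-Seq2, per the labels' protocols. Per the submitters' processing notes, mm10, STAR, Trim Galore, DESeq2 and featureCounts (Subread) were used, and the sources used here do not give the annotation release, strand setting or handling of multiply matching reads. The authors deposited raw read counts per gene and FPKM for the same genes. The deposited FPKM follow size factors by the median of ratios, with a largest relative deviation of 1.11e-14 over 11939 genes that had 20 or more counts in each library. Of 46078 rows, 551 name no gene (0.108% to 0.123% of a library's counts) and were left out.

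Counts were fitted in R 4.3.3 with edgeR 4.0.16 (filterByExpr, minimum count 10 and total 15, TMM, quasi-likelihood, group only), and calls needed a Benjamini-Hochberg adjusted p under 0.05 over 16252 genes. The SE is the log2 fold change over the square root of F. The script was tested on simulated data. Positions and classes are from GENCODE M21 (45041 of 45527 names matched), and sequences were read from its transcripts. Alternatives were DESeq2 1.42.0, RLE, upper-quartile and library-total scaling, no filter, 5 CPM or more in 3 libraries, limma-voom, limma 3.58.1 on log2 FPKM (pseudocount 1 or 0.1, genes at a mean FPKM of 1 or more, and with pseudocount 1 also unfiltered), scaling without the 3 genes, mitochondrial and top 50 genes, a replicate block and each library left out. Genes named beside the 3 are Paxbp1, Myc, up to 6 nearest tested neighbours within 250 kb per gene, up to 3 members of each of the 6 lists by adjusted p and the 3 closest profiles of each gene, predicted gene models left out. Of the genes so taken, 7 are given only in counts, and 14 singled out after seeing values are marked. Ptprv and the 3 nuclear speckle genes called lower were also named after seeing values. They are not among the 46 genes whose alternatives are counted below. The 3 genes and all lists were chosen with earlier results of these data known.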

Additional observations from a re-analysis of the deposited data

How the results depend on the processing

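For Neat1, Malat1 and Pvt1, all 54 alternative values (18 each) kept their direction and their side of the threshold. Leaving out each library in turn gave log2 values of 1.69 to 2.05 for Neat1, 0.88 to 1.12 for Malat1 and 0.24 to 0.44 for Pvt1. It gave differences of 0.80 to 1.004 for the log2 ratio of Neat1 to Malat1 and 0.85 to 1.21 for that of Pvt1 to Myc, where a p under 0.1 cannot be reached. Over all tested genes, leaving out a library gave 2053 to 2816 calls, 706 to 1159 of them higher and 1347 to 1657 lower (3315, 1324 and 1991 with all 6 libraries). Of these, 2053 came without iKO 2 and 2103 without iKO 3, and the number higher was 845, 706 and 732 without iKO 1, 2 and 3; these fits use fewer libraries. DESeq2 called 2081 genes higher, and the cause was not tested. Scaling by library totals moved the median log2 fold change of all genes to 0.15, from 0.02 with TMM.

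Same-numbered libraries did not deviate together (correlations of deviations -0.07, -0.002 and -0.06), so the numbers were not taken as pairs. With the replicate number as a block, 2215 genes were called, 813 higher and 1402 lower. The blocked values were 1.95 for Neat1 (adjusted p = 0.0059), 1.03 for Malat1 (adjusted p = 0.0123) and 0.32 for Pvt1 (adjusted p = 0.256), and sign flips of same-numbered differences gave an exact p of 0.25 for both ratios, the smallest possible. Among the 46 other named genes, 773 of 827 alternative values kept direction and side, 40 lost the call, 11 gained it and 3 changed sign, all in genes that were not called. These were Kcnq1ot1 (-0.022 to 0.095 over the fits without 1 library, negative without iKO 3 or Ctrl 3) and Meg3 (-0.46 to 0.010, positive without iKO 1). Of the 216 alternative counts of list members, 171 were within 1.5 times the main count. Depth does not limit the 3 genes, each with at least 1238 counts in every library, but 3 libraries a group limit every p.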
